A study of Mus musculus with 84 samples.

Results

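Nptx1 (ENSMUSG00000025582.4), 1 of the 37310 gene IDs counted in these livers, was followed through 84 mouse liver libraries. It was chosen by its response to TCDD (2,3,7,8-tetrachlorodibenzo-p-dioxin), by the difference of that response between strains and by its relation to Cyp1a1, all seen earlier in these same counts. Its TCDD changes and its relation to Cyp1a1 are therefore given as a description, without a test. Its row was found through the symbol that the authors' deposited table pairs with the ID. The libraries came from 14 strains, with 3 libraries labelled TCDD and 3 labelled vehicle in each, 28 groups in all. All mice are labelled as pregnant females that were 6 to 8 weeks old at the start and 7 to 9 weeks old at the end. TCDD was given by mouth at 0.1 µg/kg per day on 10 days in peanut butter, and vehicle mice received peanut butter without it.

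Inbred strains were CBA/J, C3HeB/FeJ, C57BL6/J, DBA1/J, 129S1/SVIMJ, BALB/CJ, NOD/SHILTJ, A/J, NZO/HILTJ and FVB/NJ. BXD-40/TyJ, BXD91/2RwwJ and BXD100/RwwJ are recombinant inbred lines bred from C57BL/6J and DBA/2J parents, and CC019/TauUnc is a Collaborative Cross line. Whether every library stands for a separate mouse is not stated in the labels; p-values refer to the spread between libraries, which may be technical. The total of gene counts was 9122406 in the shallowest library, 16202909 at the median and 19689624 in the deepest. In whole liver, fewer cells expressing a gene and less RNA of it per cell cannot be told apart.

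Nptx1 encodes neuronal pentraxin 1, a secreted protein of the pentraxin family that is best known from the synapse, where neuronal pentraxins gather AMPA-type glutamate receptors. The family members best known from the liver are the plasma proteins C-reactive protein (Crp) and serum amyloid P component (Apcs), which bind damaged cells and microbes and engage complement. TCDD binds the aryl hydrocarbon receptor (AHR), a transcription factor whose best known liver targets are the cytochromes P450 Cyp1a1 and Cyp1a2. The forms of the AHR carried by inbred mice differ in affinity for TCDD, and that of C57BL/6 mice binds it more tightly than that of DBA/2 mice.

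Nptx1 was a low-count gene. Its count was at least 1 in every library, with a median of 21 and a highest value of 392, and 6 libraries held 3 counts or fewer. Values are given as CPM (counts scaled to the total of gene counts in that library), and intervals are exact Poisson intervals at 95% that cover counting error only. Every value above 5 CPM, a level set after the values were seen, came from 1 of 13 libraries, each a TCDD library of 1 of 5 strains: CBA/J, BXD100/RwwJ, C3HeB/FeJ, BXD91/2RwwJ and C57BL6/J. The lowest of those 13 was 6.33 CPM, and the highest of the other libraries was 4.29 CPM.

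**Figure D1:**
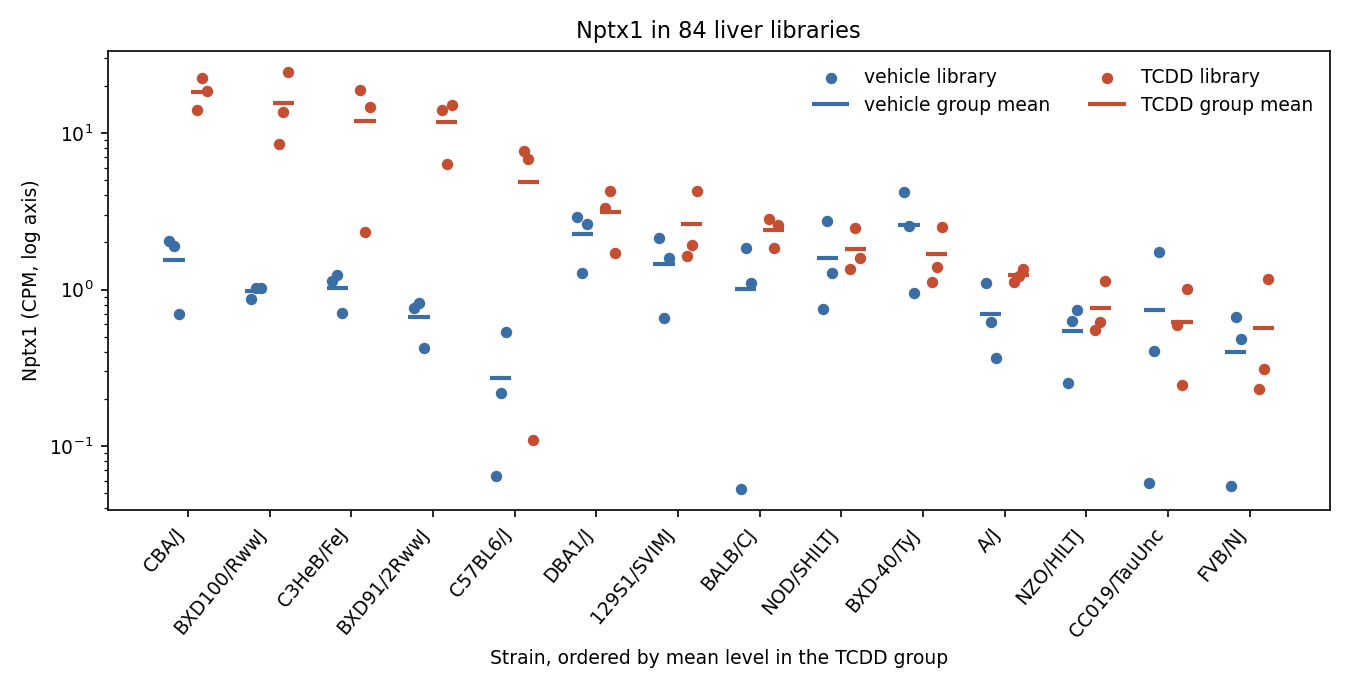
Nptx1 in CPM on a log axis for each of the 84 libraries, by strain and treatment, with a bar at each group mean. The TCDD libraries of the 5 strains on the left reach 6.33 to 24.7 CPM except for 1 library of C3HeB/FeJ and 1 of C57BL6/J, and every other library lies at or below 4.29 CPM.

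In CBA/J, Nptx1 stood at 14.0, 22.6 and 18.6 CPM with TCDD and at 2.04, 1.89 and 0.696 CPM with vehicle. The groups did not overlap, and the fitted log2 change was 3.46 ± 0.74 (SE, 3 against 3 libraries). The TCDD mean of CBA/J, 18.4 ± 4.3 CPM (SD, n = 3), was the highest of the 28 groups. In BXD100/RwwJ the TCDD libraries stood at 8.52, 13.6 and 24.7 CPM and the vehicle libraries at 0.868, 1.03 and 1.03 CPM. These groups did not overlap either, with the vehicle libraries close together and the TCDD libraries spread widely (coefficient of variation 9.62% and 52.9%). The log2 change was 4.04 ± 0.78.

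In BXD91/2RwwJ the TCDD libraries stood at 14.0, 6.33 and 15.02 CPM and the vehicle libraries at 0.758, 0.822 and 0.423 CPM. Again the groups were apart, and the log2 change was 4.14 ± 0.79. C57BL6/J stood at 7.70, 6.86 and 0.1096 CPM with TCDD and at 0.0641, 0.218 and 0.535 CPM with vehicle. Replicates 1 and 2 of TCDD lay above every vehicle library of the strain and replicate 3, with 1 count (95% interval 0.00278 to 0.611 CPM), lay among them. The log2 change was 4.17 ± 0.88 with all libraries and 4.71 without replicate 3.

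That library stood apart from all others in its sex-linked genes. The library labelled C57BL6/J TCDD replicate 3 held 0.219 CPM of Xist, the RNA of the inactive X chromosome, against 52.0 to 679 CPM in the other 83 libraries. Y-linked genes summed to 128.5 CPM in it and to at most 0.0691 CPM in the others, and its Cyp1a1 was 1.21 CPM against 1604 and 1393 CPM in replicates 1 and 2. Its Nptx1 value is therefore shown here with the label as deposited, and most main results of Nptx1 that rest on it are given with and without it. The lists of genes most like Nptx1 include it and are not given without it.

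In C3HeB/FeJ the TCDD libraries disagreed with each other. Replicates 1 and 3 held 327 and 264 Nptx1 counts (18.97 and 14.7 CPM), while replicate 2 held 38 counts (2.33 CPM, interval 1.65 to 3.19 CPM). The vehicle libraries stood at 1.13, 1.24 and 0.712 CPM. All TCDD libraries were above all vehicle libraries, but the coefficient of variation within the TCDD group was 72.1%. The log2 change was 3.75 ± 0.76, and it ranged from 3.15 to 4.24 as single libraries of the strain were left out. Marker sums of other kinds differed between these libraries as well. Replicate 2 lay outside replicates 1 and 3 in 10 of 11 marker lists. Any given library of 3 is more often highest or lowest than in the middle, so nothing is read from that count. The hepatocyte markers summed to 76796 CPM in replicate 2 against 114311 and 100005 CPM in replicates 1 and 3, and endothelial markers to 155 against 282 and 241 CPM. Neuronal markers summed to 22.95 against 8.76 and 15.2 CPM, and genes of male liver to 175.2 against 51.3 and 106 CPM. Their part in the Nptx1 values was not tested.

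In the other 9 strains, the fitted changes ran from -0.59 ± 0.73 in BXD-40/TyJ to 1.19 ± 0.75 in BALB/CJ. With 1 library left out, that of BALB/CJ ran from 0.62 (without vehicle replicate 1) to 2.00 (without vehicle replicate 2), and that of BXD-40/TyJ from -0.98 (without vehicle replicate 3) to -0.09 (without vehicle replicate 1). A/J was the only other strain whose groups did not overlap, with 1.13, 1.22 and 1.36 CPM after TCDD and 1.10, 0.625 and 0.367 CPM after vehicle. Its closest pair lay 1.13 against 1.10 CPM, and its log2 change was 0.89 ± 0.81. In BALB/CJ the TCDD libraries stood at 2.81, 1.84 and 2.60 CPM and the vehicle libraries at 0.0529, 1.86 and 1.11 CPM. The BALB/CJ groups met at 1.84 and 1.86 CPM, and a single vehicle library with 1 count lay far below the rest.

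The remaining 7 strains had overlapping groups. The log2 change was 0.78 ± 0.73 in 129S1/SVIMJ, 0.54 ± 0.95 in FVB/NJ, 0.48 ± 0.88 in NZO/HILTJ, 0.43 ± 0.71 in DBA1/J, 0.30 ± 0.74 in NOD/SHILTJ and -0.26 ± 0.88 in CC019/TauUnc. Leaving out 1 library of the strain at a time moved the change from 0.26 to 1.17 in 129S1/SVIMJ (without TCDD replicate 3 and vehicle replicate 1), from 0.10 to 0.81 in NZO/HILTJ (without TCDD replicate 3 and vehicle replicate 3) and from 0.12 to 0.75 in DBA1/J (without vehicle replicates 2 and 1). With the exception of 129S1/SVIMJ, none of these changes, nor that of BXD-40/TyJ, was larger than its SE. In FVB/NJ, NOD/SHILTJ and CC019/TauUnc the sign depended on single libraries: leaving 1 out at a time moved the change from -0.55 to 1.12, from -0.01 to 0.93 and from -0.83 to 1.43. DBA1/J, with 1.72 to 4.29 CPM after TCDD and 1.28 to 2.92 CPM after vehicle, had the next highest TCDD mean after the 5 strains above (3.11 ± 1.29 CPM, SD, n = 3).

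Nptx1 thus had all 3 TCDD libraries above all 3 vehicle libraries in 5 strains (A/J, BXD100/RwwJ, BXD91/2RwwJ, C3HeB/FeJ and CBA/J), beside 5.55% of all pairs of gene and strain; the gene was chosen on this contrast, so nothing is read from that count. The mean of the 14 changes was 1.67 ± 0.21 (SE), and 12 of 14 were positive. The authors' deposited table lists log2 fold changes of 4.19, 4.15, 4.06, 3.75 and 3.44 for Nptx1 under its headings C57Bl/6J, BXD91, BXD100, C3Heb/FeJ and CBA/J. Under its other headings the authors' deposited table runs from -0.61 for BXD40 to 1.18 for Balb/cj.

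**Figure D2:**
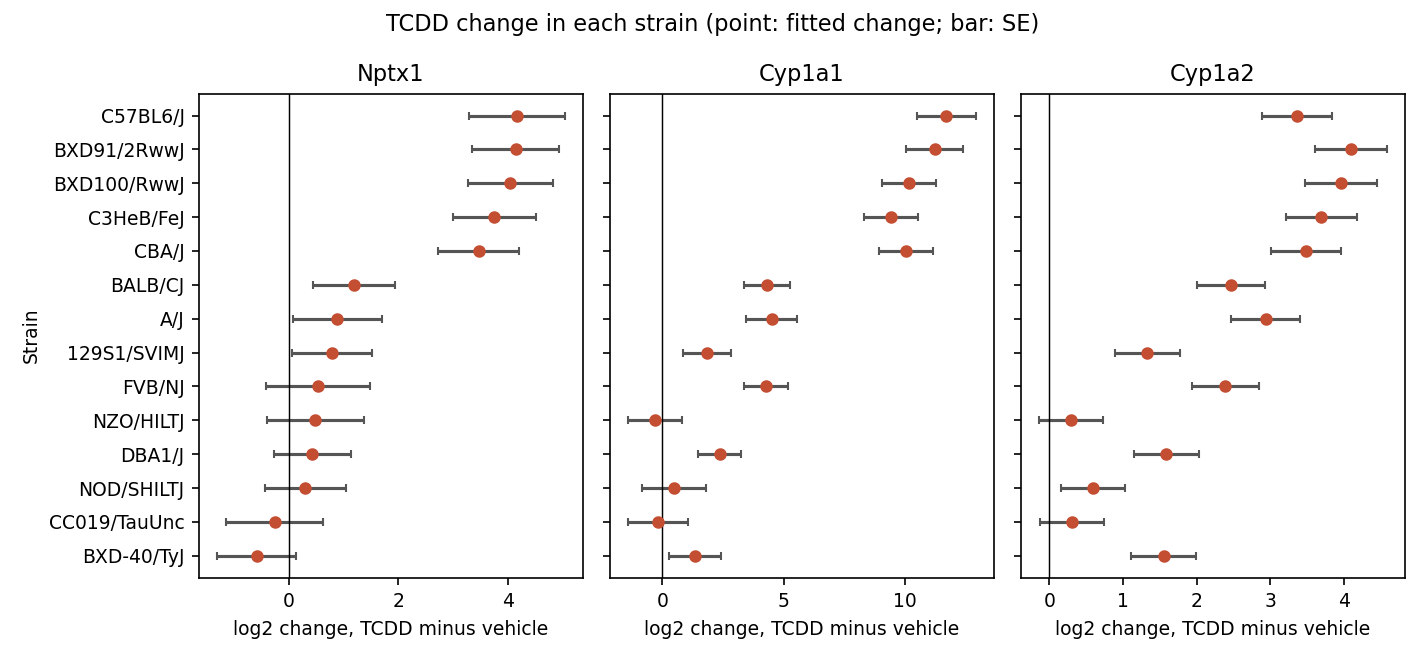
Fitted log2 change, TCDD minus vehicle, of Nptx1, Cyp1a1 and Cyp1a2 in each of the 14 strains, ordered by the change of Nptx1; bars are SE and the vertical line marks no change. Nptx1 lies at 3.46 to 4.17 in 5 strains and at -0.59 to 1.19 in the other 9, and Cyp1a1 in BALB/CJ, A/J and FVB/NJ, at 4.25 to 4.50, lies between the other strains.

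Among the TCDD groups, the order of mean level was CBA/J, BXD100/RwwJ, C3HeB/FeJ, BXD91/2RwwJ, C57BL6/J, DBA1/J, 129S1/SVIMJ, BALB/CJ, NOD/SHILTJ, BXD-40/TyJ, A/J, NZO/HILTJ, CC019/TauUnc and FVB/NJ. Every pair of neighbours in that order had overlapping libraries, but C57BL6/J and DBA1/J overlapped only through C57BL6/J replicate 3: without it C57BL6/J stood at 6.86 and 7.70 CPM against 1.72 to 4.29 CPM. The difference between neighbours was larger than the larger of their SDs for BXD91/2RwwJ over C57BL6/J (11.8 against 4.89 CPM), BALB/CJ over NOD/SHILTJ (2.42 against 1.80 CPM) and A/J over NZO/HILTJ (1.23 against 0.765 CPM). Without C57BL6/J replicate 3 the mean of that strain was 7.28 CPM over 2 libraries, its distance below BXD91/2RwwJ, 4.51 CPM, no longer exceeded the larger SD of 4.76 CPM, and its distance above DBA1/J, 4.17 CPM, exceeded the larger SD of 1.29 CPM. FVB/NJ, lowest with TCDD at 0.569 ± 0.517 CPM (SD, n = 3), had a Cyp1a1 level of 19.3 to 39.3 CPM in the same libraries.

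The vehicle libraries also enter the TCDD changes by which the gene was chosen, so comparisons between vehicle groups are not independent of that choice. Their p-values are given as a description and support nothing. The vehicle means ran from 2.57 ± 1.63 CPM in BXD-40/TyJ to 0.273 ± 0.240 CPM in C57BL6/J (SD, n = 3). DBA1/J followed BXD-40/TyJ with 2.28 ± 0.88 CPM, and without BXD-40/TyJ vehicle replicate 1 it was the highest, since the mean of BXD-40/TyJ was then 1.75 CPM over 2 libraries. At the other end FVB/NJ lay next to C57BL6/J with 0.401 ± 0.313 CPM. The edgeR quasi-likelihood F test over the 14 vehicle groups gave F = 2.39 and an adjusted p of 0.0283 (Benjamini-Hochberg adjustment over 16195 genes), and 46.8% of the genes tested passed the same threshold. In the BXD lines 3.74% to 4.35% of reads aligned more than once, against 7.80% to 10.2% in the other strains, and the part of this in the levels was not tested. No neighbours in the order of vehicle levels differed by more than the larger of their SDs, and all neighbours had overlapping libraries.

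The call rested on few libraries. The adjusted p was 0.0740 without BXD-40/TyJ vehicle replicate 1, 0.0595 without DBA1/J vehicle replicate 1, 0.0571 without C57BL6/J vehicle replicate 1 and 0.0541 without C57BL6/J vehicle replicate 2 (edgeR), and it was 0.0668 without a filter on low counts.

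When each strain was set against the mean of the other 13, Nptx1 was called in 0 strains by edgeR and in 0 by DESeq2, beside 8.94% of all pairs of gene and strain. At an unadjusted p below 0.05 in edgeR there were 3 strains. BXD-40/TyJ lay 1.499 ± 0.50 above the others on the log2 scale (SE, adjusted p = 0.0555, edgeR), with vehicle libraries at 4.21, 2.55 and 0.957 CPM. DBA1/J lay 1.37 ± 0.50 above (adjusted p = 0.115, edgeR), with 2.92, 1.28 and 2.64 CPM. C57BL6/J lay at -1.88 ± 0.77 (adjusted p = 0.146, edgeR), with 14 counts over its 3 libraries. BXD-40/TyJ was called once replicate 3 of C57BL6/J TCDD was left out (adjusted p = 0.0285, edgeR).

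The highest vehicle value, 4.21 CPM in BXD-40/TyJ replicate 1, came from a library in which markers of another organ were high. The 6 adrenal cortex markers summed to 591 CPM in it, against 12.6 and 6.15 CPM in replicates 2 and 3 of the group. Th and Dbh, the catecholamine enzymes of the adrenal medulla and of sympathetic neurons, stood at 12.1 and 5.74 CPM there, and Th was at 0 in all but 4 libraries. Without that library, BXD-40/TyJ lay 1.00 above the other 13 on the log2 scale (adjusted p = 0.591, edgeR), and its TCDD change moved from -0.59 to -0.09. The part of adrenal RNA in its Nptx1 level was not tested. A/J vehicle replicate 2 had 443 CPM of the same cortex markers, 1941 CPM of muscle markers, and 5.50 and 4.19 CPM of Th and Dbh. Its Nptx1 was 0.625 CPM.

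**Figure D3:**
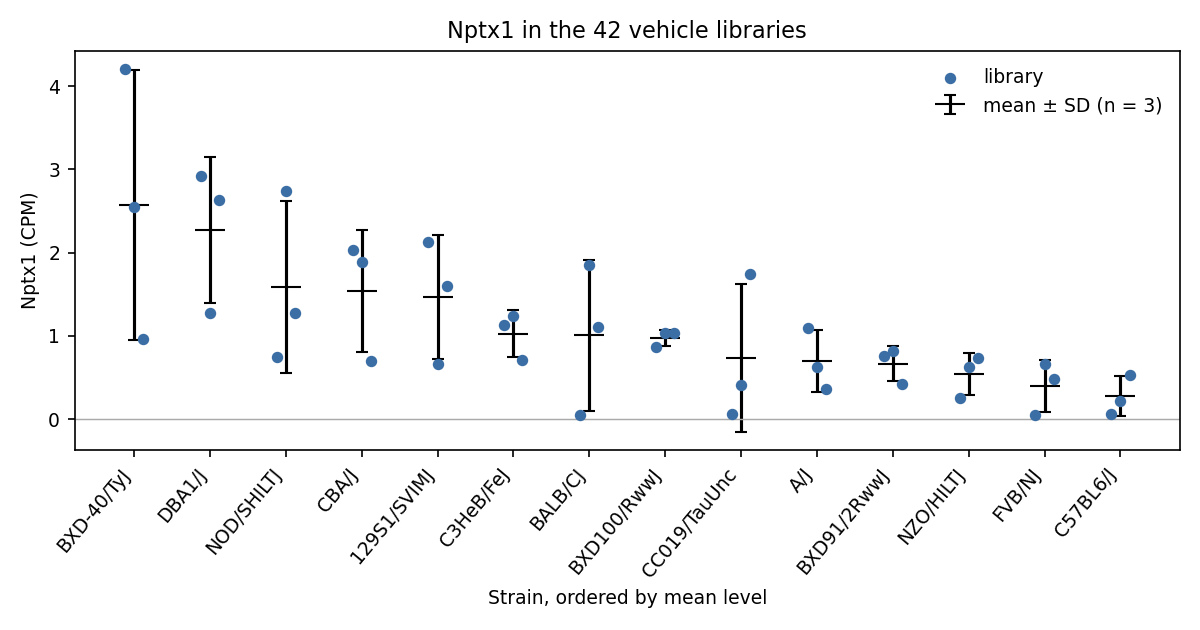
Nptx1 in CPM in the 42 vehicle libraries, by strain, with mean ± SD (n = 3) and each library as a point. The strain means fall from 2.57 CPM in BXD-40/TyJ (1.75 CPM without replicate 1, below DBA1/J) to 0.273 CPM in C57BL6/J, and the libraries of neighbouring strains overlap throughout.

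Since Nptx1 is known from neurons, neuronal markers were summed as well. The 12 markers summed to 6.94 to 39.0 CPM in vehicle libraries and to 8.76 to 36.1 CPM in TCDD libraries. Syt1, a synaptic vesicle protein, made up most of that, with a median of 15.8 CPM. Snap25, Tubb3, Nefl, Nefm, Gap43 and Elavl4, which define neurons, had medians of 0 and stayed at or below 1.23 CPM. Rbfox3 and Syn1, which also mark neurons, had a count in all 84 libraries, with medians of 1.06 and 1.63 CPM and highest values of 2.38 and 3.45 CPM. In CBA/J, the strain of the highest Nptx1, the list summed to 15.4 to 24.8 CPM with TCDD and to 12.1 to 15.1 CPM with vehicle; in BXD91/2RwwJ it summed to 14.3 to 21.5 and 15.4 to 17.98 CPM. The 10 hepatocyte markers summed to 63656 to 115381 CPM with vehicle and to 64879 to 114311 CPM with TCDD, as the liver label implies.

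Cyp1a1, the reference for the AHR response, fell into separate clusters over the 42 TCDD libraries. Its widest gap, found after the data were seen, lay between 223 and 1217 CPM, with 30 libraries below and 12 above. The 12 libraries above were those of CBA/J, BXD100/RwwJ and BXD91/2RwwJ, replicates 1 and 2 of C57BL6/J and replicate 3 of C3HeB/FeJ, and their Nptx1 ran from 6.33 to 24.7 CPM with a median of 14.0 CPM. In the 30 below, Nptx1 ran from 0.1096 to 18.97 CPM with a median of 1.38 CPM. In the 42 vehicle libraries, where Cyp1a1 was at most 2.43 CPM, the median of Nptx1 was 0.845 CPM.

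The exception was C3HeB/FeJ. Its TCDD replicate 1 had only 75.9 CPM of Cyp1a1 but 18.97 CPM of Nptx1, more than replicate 3 with 1217 CPM of Cyp1a1 and 14.7 CPM of Nptx1. Replicate 2 had 223 CPM of Cyp1a1 and 2.33 CPM of Nptx1. Cyp1a2 stood at 4479, 4598 and 7974 CPM in replicates 1, 2 and 3. The order of the libraries by Nptx1 was therefore not that by either cytochrome.

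Within the clusters the relation was weak. Pearson's r of log2 CPM (scaled by TMM, prior count 1) was 0.24 over the 12 libraries above the gap (Spearman's rho 0.20) and 0.33 over the 30 below (rho 0.31). Without the 2 libraries farthest from the median of Cyp1a1 these fell to 0.03 and 0.11, so both rested on those libraries. Over the 42 vehicle libraries r was 0.07 (rho 0.16), and 0.04 without the 2 farthest. These libraries share strain and treatment, and a low count of either gene adds noise, so the values are descriptions.

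Deviations from the group mean, which take out strain and treatment, gave r = 0.61 over the 42 TCDD libraries but a rho of 0.09. Once replicate 3 of C57BL6/J TCDD was left out, r was -0.09 (41 libraries), and without C3HeB/FeJ as well it was -0.25 (38 libraries). Over the vehicle libraries r was -0.23 (rho -0.29). Thus the positive r within groups rested on that library.

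**Figure D4:**
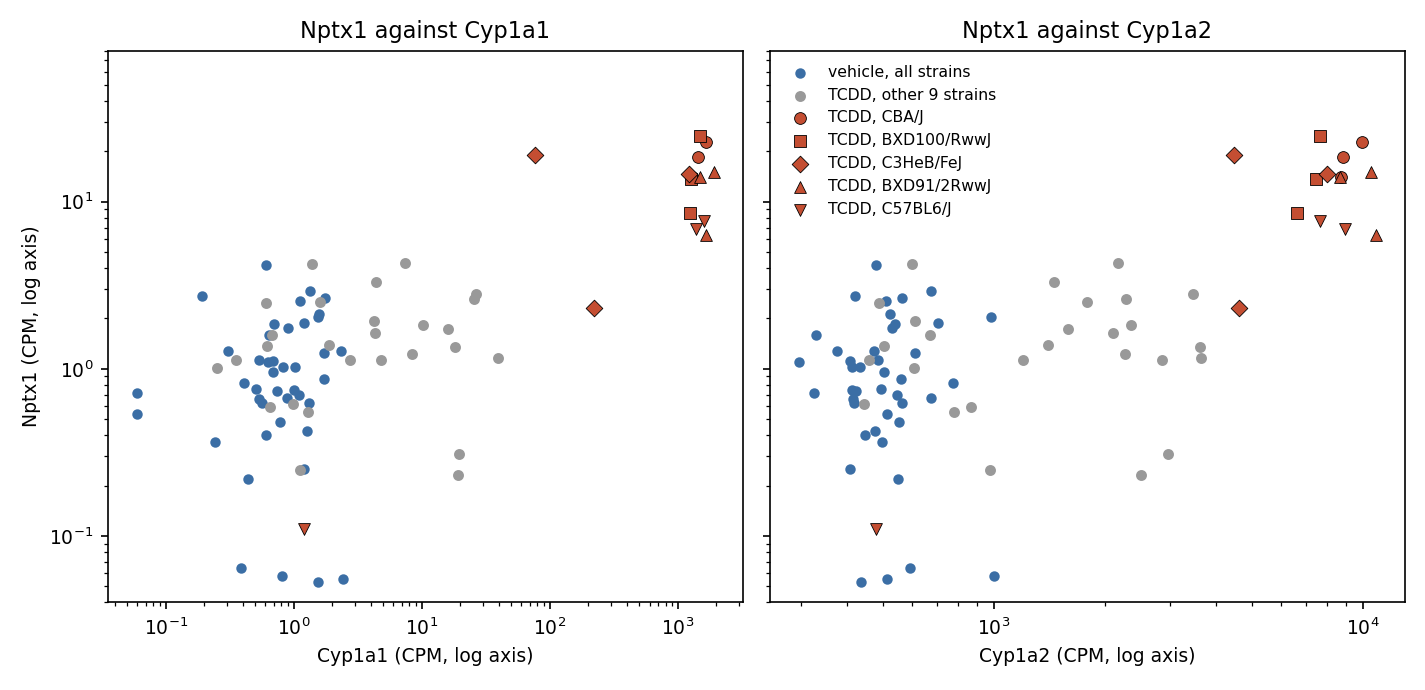
Nptx1 against Cyp1a1 (left) and Cyp1a2 (right) in each of the 84 libraries, in CPM on log axes; vehicle libraries are blue, TCDD libraries of 9 strains grey, and the other 5 strains have a marker each. The 12 libraries with Cyp1a1 of 1217 CPM or more all have Nptx1 of 6.33 CPM or more, and the C3HeB/FeJ library with 75.9 CPM of Cyp1a1 lies as high as they do.

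Nptx1 changed less than Cyp1a1 in strains of middling Cyp1a1 response, as it did in the 5 strains of highest Nptx1. In A/J, BALB/CJ and FVB/NJ the ratio of TCDD to vehicle means was 21.7, 21.3 and 19.03 for Cyp1a1, and 1.77, 2.41 and 1.42 for Nptx1. Their fitted log2 changes (± SE) were 4.50 ± 1.04, 4.31 ± 0.94 and 4.25 ± 0.91 for Cyp1a1. For Nptx1 they were 0.89 ± 0.81, 1.19 ± 0.75 and 0.54 ± 0.95. Cyp1a2 rose in these strains by 2.94 ± 0.47, 2.47 ± 0.46 and 2.39 ± 0.46 on the log2 scale (fitted changes ± SE), given as a description. In the 5 strains of highest Nptx1 the ratios were 654 to 3406 for Cyp1a1 and 11.7 to 17.9 for Nptx1. Both upper ends were those of C57BL6/J, whose ratios were 5108 and 26.7 without TCDD replicate 3. The lower end of Cyp1a1 was that of C3HeB/FeJ, whose ratios were 193.4 for Cyp1a1 and 10.4 for Nptx1 without TCDD replicate 3. NZO/HILTJ, NOD/SHILTJ and CC019/TauUnc, where the Cyp1a1 ratio was 0.806, 1.26 and 0.872, had Nptx1 ratios of 1.42, 1.13 and 0.838. In DBA1/J, with a Cyp1a1 ratio of 5.12, the Nptx1 ratio was 1.37. BXD-40/TyJ, with a Cyp1a1 ratio of 2.58, had an Nptx1 ratio of 0.653, and of 0.958 without vehicle replicate 1, the library with adrenal markers.

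The genes most like Nptx1 over the 84 libraries, by Pearson's r of log2 CPM among 13530 named genes, were Cyp1a1 (r = 0.72), Cyp1a2 (0.69), Htatip2 (0.60), Slc46a3 (0.57), Cyfip2 (0.56) and Prdx3 (0.55). The median over all genes compared was -0.003. Htatip2 encodes an oxidoreductase, Slc46a3 a lysosomal transporter, Cyfip2 a subunit of the actin-regulating WAVE complex and Prdx3 a mitochondrial peroxiredoxin. By the 14 within-strain TCDD changes the closest were Cyp1a1 (r = 0.96), Htatip2 (0.89), Nfe2l2 (0.88), Gnao1 (0.87), Cyp1a2 (0.86) and Tuba8 (0.84). Cyp1a1 was the only gene above 0.7 over the libraries and the only one above 0.9 over the strains. The next genes, Cyp1a2 at 0.69 and Htatip2 at 0.89, lay close below these levels. Nptx1 was chosen by its relation to Cyp1a1, so nothing is read from the place of Cyp1a1.

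Those lists are descriptions, since all points share libraries and the clusters of Cyp1a1 above. Both include C57BL6/J TCDD replicate 3, and their r without it is not given. Htatip2 changed by 1.06 to 1.57 in the 5 strains of highest Nptx1 and by 0.09 to 0.64 in the other 9 (log2). Nfe2l2, the transcription factor NRF2, changed by 0.40 to 0.87 and by -0.20 to 0.18 in these strains. Both 1.06 and 0.40 were those of C57BL6/J with TCDD replicate 3 included, and changes without it are not given for these genes. Htatip2 stood at 164.6, 132.6 and 47.5 CPM in TCDD replicates 1, 2 and 3 of C57BL6/J. Gnao1, a G protein subunit, was near its detection limit (0.276 CPM on average), and Tuba8, an alpha tubulin, stood at 3.15 CPM. The mean log2 change over strains (± SE) was 0.70 ± 0.06 for Htatip2, 0.52 ± 0.08 for Slc46a3, 0.38 ± 0.09 for Cyfip2, 0.08 ± 0.04 for Prdx3, 0.19 ± 0.06 for Nfe2l2, 0.12 ± 0.27 for Gnao1 and 0.60 ± 0.20 for Tuba8; no test is given, since the genes were picked for their likeness to a gene chosen by this change.

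**Figure D5:**
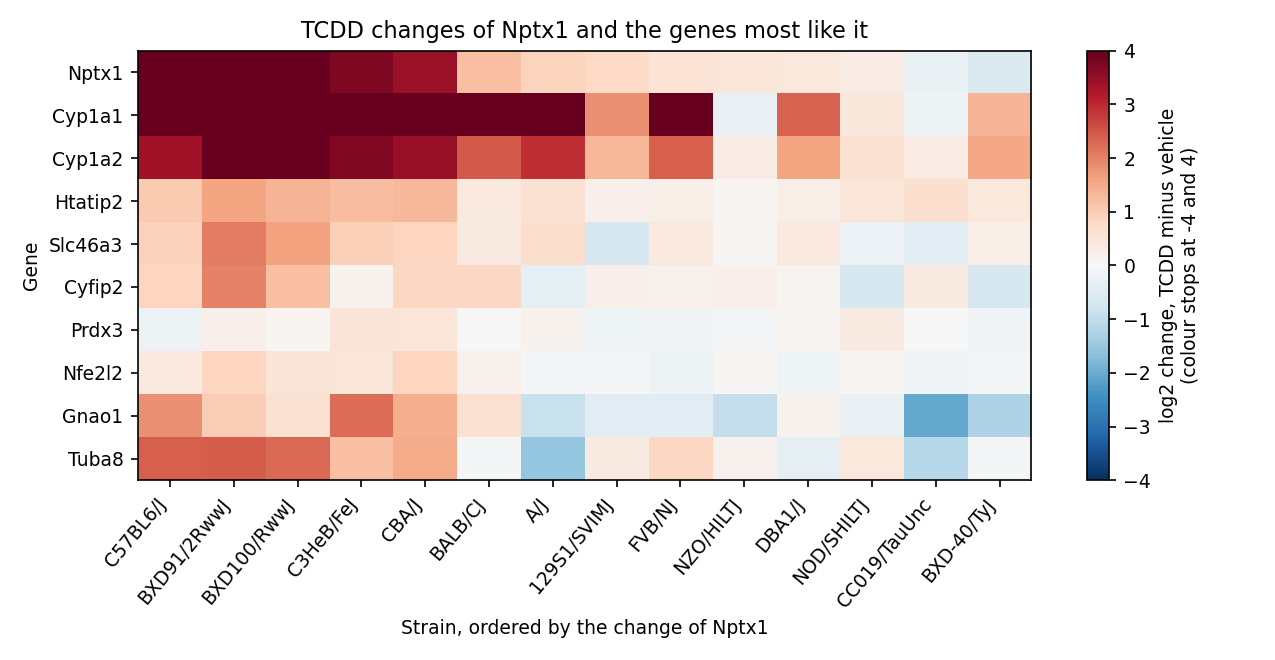
Fitted log2 change, TCDD minus vehicle, of Nptx1 and the genes whose levels or changes were most like it, in each of the 14 strains ordered by the change of Nptx1; the colour scale stops at -4 and 4. The left 5 strains are high for Cyp1a1 and Cyp1a2 as well. Cyp1a1 also reaches the end of the scale in A/J, BALB/CJ and FVB/NJ, at 4.25 to 4.50, and Cyp1a2 is 2.94 in A/J against 3.37 in C57BL6/J. Htatip2 reaches 1.06 to 1.57 in the left 5 strains, with 1.06 in C57BL6/J, TCDD replicate 3 included.

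The other pentraxins did not show a called change. Of 8 other pentraxin genes, 2 had counts enough for the test, and 0 were called in the average of the strains or in the strain by TCDD test by edgeR or by DESeq2, with 0 at an unadjusted p below 0.05 in the average. Over all genes 0.154% were called higher and 0.0247% lower in the average and 0.0309% in the strain by TCDD test, 29 and 5 genes, with 962 and 1381 at an unadjusted p below 0.05 (edgeR). Crp ran from 347 to 719 CPM with vehicle and from 213.3 to 757 CPM with TCDD, and its mean change was -0.04 ± 0.05 (log2, SE). Apcs ran from 93.6 to 1290 CPM and from 61.7 to 1018 CPM, with a mean change of -0.19 ± 0.09.

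Apcs differed between strains with vehicle (edgeR, adjusted p = 7.54e-09), from 226.7 ± 39.4 CPM in C57BL6/J to 1029 ± 201.2 CPM in A/J (SD, n = 3). Of all genes tested, 46.8% were called in the same test, so nothing is read from that call. C57BL6/J thus had the lowest vehicle mean for both Nptx1 and Apcs, but neither place was clear of the next strain. Its Apcs libraries overlapped those of BXD91/2RwwJ (233.5 ± 31.2 CPM, SD, n = 3), and its Nptx1 libraries those of FVB/NJ. With TCDD the C57BL6/J libraries, replicate 3 included, stood at 61.7 to 126 CPM of Apcs against 182 to 256 CPM with vehicle. The ranges were also apart in A/J (616 to 716 against 874 to 1256 CPM) and BXD91/2RwwJ (136 to 174 against 211 to 269 CPM). They overlapped in the other strains. The share of all genes with such a fall was not computed, so nothing is read from these ranges. Crp did not pass the test between vehicle strains (adjusted p = 0.0717, edgeR). The neuronal relatives Nptx2 and Nptxr were at most 0.362 and 0.807 CPM in any library, and Ptx3, Ptx4, Mptx1 and Mptx2 at most 0.459 CPM.

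Partners that pentraxins are known to bind were followed in a list of 14 genes, of which 11 were tested. Among them were the AMPA receptor subunits, complement C1q, C4bp, the protease Adam17 and the Fc gamma receptors. None of the 11 was called in the average or in the strain by TCDD test by edgeR or DESeq2, with 1 and 0 at an unadjusted p below 0.05 (edgeR). Their median change was -0.08, beside -0.003 over all genes tested. Of the AMPA receptor subunits only Gria3 had counts enough to be tested, at a median of 0.512 CPM with vehicle and 0.454 CPM with TCDD, and C1qa stood at 85.9 and 85.4 CPM.

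Of 15 genes of the AHR battery, 13 were tested and 4 were called higher in the average by edgeR, with 0 lower. They were Cyp1a1 (5.08 ± 0.31), Cyp1a2 (2.29 ± 0.12), Htatip2 (0.70 ± 0.06) and the glucuronosyltransferase Ugt1a6a (0.20 ± 0.05, adjusted p = 0.0481), which shares exons with the other Ugt1a genes. The call of Ugt1a6a was lost without the low-count filter (adjusted p = 0.0887, edgeR), without the BXD lines and CC019/TauUnc (0.748) and on leaving out any 1 of 61 of the 84 libraries (up to 0.0940). The strain by TCDD test called Cyp1a1 (adjusted p = 8.71e-11) and Cyp1a2 (adjusted p = 3.35e-06, edgeR), and the call of Cyp1a2 was lost without the BXD lines and CC019/TauUnc (adjusted p = 0.0945). The median change of the list was 0.21. The list was chosen with these results known and is no independent evidence of its direction or of its calls in either test. Nqo1 (0.28 ± 0.08), Tiparp (-0.13 ± 0.12) and Cyp1b1 (0.38 ± 0.27) were not called, and Ahrr did not have counts enough.

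The genes beside Nptx1 on the chromosome were looked at as well. Of the 5 genes on each side in the RefSeq order, 5 were tested: Rnf213, Endov, Rptor, Rptoros and Chmp6. Their mean changes ran from -0.07 ± 0.07 in Rnf213, an E3 ubiquitin ligase, to 0.17 ± 0.13 in Rptoros, which is antisense to Rptor and whose reads cannot be told from those of Rptor by these libraries. Rptor, a subunit of the mTORC1 kinase complex, changed by 0.09 ± 0.06. None was called in the average or in the strain by TCDD test (edgeR, adjusted p of 0.904 or more and 0.906 or more). Over all genes 0.154% were called higher and 0.0247% lower in the average and 0.0309% in the strain by TCDD test. Nothing is therefore read from the lack of calls. Pearson's r with Nptx1 over the 84 libraries ran from -0.03 for Rnf213 to 0.28 for Rptor, beside a median of -0.003 over all genes compared. Gm11762, the closest gene on the side of Rptor, was at most 0.186 CPM.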

How the data were processed

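Liver RNA with an integrity number of at least 7 was made into libraries with a NEBNext Ultra RNA kit, which does not mark strand, per the labels' protocols. Per the submitters' processing notes, FastQC 0.11.5, Trimmomatic 0.38, Bowtie2 2.3.2.25, HTSeq 0.6.1 and DESeq2 (given as 3.8) were used and the build was mm9. Coordinates are left out, since the annotation used here belongs to a later build. The deposited files carry strain names that may be those of the references used, DBA/2J for libraries labelled DBA1/J and C3H/HeJ for those labelled C3HeB/FeJ; labels are used as given, and any effect on levels compared between strains was not tested. The authors deposited 84 files of whole-number counts per gene and, for every strain, log2 fold changes with p-values, per the file headers. Reads in no gene were 46.7% to 52.6%, ambiguous reads 0.442% to 1.41%, and reads aligned more than once 3.74% to 10.2%; these stayed out of the totals. No pair of replicates was a repeat: chi-square per degree of freedom was 12.8 to 206 over 84 pairs.

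Gene names came from the authors' deposited table (25650 IDs) and a reference table (9029), and 2631 IDs had none. Counts were fitted with edgeR 4.0.16 in R 4.3.3: TMM scaling (factors 0.775 to 1.16), the filterByExpr filter (16195 genes), and a robust quasi-likelihood fit on 28 groups, with contrasts for the mean of the 14 TCDD changes, each strain, strain by TCDD, and the vehicle groups. A call is a Benjamini-Hochberg adjusted p below 0.05 over all genes tested in that contrast. SEs are those of fitted log2 changes; CPM use gene totals without TMM factors. Correlations use log2 CPM with TMM and a prior count of 1. Replicate numbers only name libraries.

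Nptx1 and the lists (8 other pentraxins, 14 partners, 15 AHR battery genes, cell type markers) were chosen with earlier results of these data known. Named were Nptx1, Cyp1a1 and Cyp1a2, called list genes, pentraxins that passed the filter, the 6 genes most like Nptx1 by each of 2 correlations, and 5 neighbours on each side; predicted genes, Riken clones and pseudogenes were passed over among the like genes. The remaining list genes and markers given in the text were picked after their values were seen. Alternatives were DESeq2 1.42.0, RLE size factors, all genes without the low-count filter, a fit without robust estimation, each strain alone, and leaving out libraries or strains. Refits without 1 library or 1 strain kept the genes and the dispersion trend of the fit to all libraries; the other edgeR refits estimated both again, and DESeq2 was given the same genes. Only edgeR's tests of the average and of the vehicle groups were tried on simulated data. The changed genes there had higher mean counts than the Nptx1 median of 21, so genes of so few counts were not covered. The strain by TCDD test and the contrasts of single strains were not tried.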

Additional observations from a re-analysis of the deposited data

Results flagged for a closer look

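The size of the TCDD change differed between the 14 strains for Cyp1a1 (adjusted p = 8.71e-11) and for Cyp1a2 (adjusted p = 3.35e-06), by the strain by TCDD test of edgeR's quasi-likelihood fit over 16195 genes. Nptx1 was chosen by its relation to Cyp1a1, and the gene list with earlier results known, so both p-values are given as a description. For Cyp1a1 the fitted log2 changes ran from -0.30 ± 1.12 in NZO/HILTJ to 11.70 ± 1.23 in C57BL6/J, and they were positive in 12 of 14 strains. For Cyp1a2 they ran from 0.29 ± 0.43 in NZO/HILTJ to 4.10 ± 0.49 in BXD91/2RwwJ and were positive in 14 of 14. The change in C57BL6/J includes TCDD replicate 3, and without it was 12.27 ± 0.90 for Cyp1a1. Without the BXD lines and CC019/TauUnc the adjusted p was 0.000202 for Cyp1a1 and 0.0945 for Cyp1a2 (edgeR). No formal test for outlying samples was run within groups of 3 libraries.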

How the results depend on the processing

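The mean TCDD change of Nptx1, 1.67, ran from 1.47 to 1.84 over 21 other settings and from 1.59 to 1.79 as each of the 84 libraries was left out, and 12 strains kept a positive change in each of the 7 settings that refit all strains. The vehicle difference between strains, at an adjusted p of 0.0283, was lost without a low-count filter (0.0668) and ran from 0.00790 to 0.0740 with 1 library left out; it was 0.00548 with DESeq2 and 0.0381 without 3 libraries that stood apart by sex-linked or other organs' genes (BXD-40/TyJ vehicle replicate 1, C57BL6/J TCDD replicate 3 and the A/J vehicle replicate 2), a setting chosen after seeing the data. The count of strains called against the other 13, 0, became 1 (BXD-40/TyJ) without C57BL6/J TCDD replicate 3 and ran from 0 to 1 with 1 library left out; this was run for the 9 vehicle libraries of BXD-40/TyJ, DBA1/J and C57BL6/J, and the others were not run. The 2 list genes of the strain by TCDD test became 4 with DESeq2 and 1 (Cyp1a1) when the BXD lines and CC019/TauUnc were left out. All genes called by it, 5 or 0.0309% of those tested, went to 1.06% of the 16195 entered with DESeq2 and to 1 without those lines. They went to 11 without C57BL6/J TCDD replicate 3 when filter and dispersion were estimated again and 14 when both were kept, to 14 without these 3 libraries and to between 4 and 14 with 1 library left out. All genes called in the average, 29, were 5 without those lines and 42 with DESeq2. The cause was not tested.

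The change in A/J ran from 0.61 to 1.41 and that in CC019/TauUnc from -0.83 to 1.43 with 1 library of the strain left out. The relation to Cyp1a1 below its gap went from r = 0.33 to 0.11 without C3HeB/FeJ and 0.52 without FVB/NJ. That of deviations within TCDD groups went from 0.61 to -0.095 without C57BL6/J TCDD replicate 3 and to -0.10 without the strain, and within vehicle groups from -0.23 to -0.39 without C3HeB/FeJ. The remaining settings moved the strain changes by less than the SD of log2 CPM within the strain's groups, and the correlations by less than their approximate SE. That SD is not the SE of a change. FVB/NJ moved from 0.54 to -0.55 without TCDD replicate 3, by more than its SE of 0.95. BALB/CJ moved from 1.19 to 2.00 without vehicle replicate 2, by more than its SE of 0.75. No paired analysis was possible because the labels carry no replicate numbers. Counts of Nptx1 at or under 3 in 6 libraries, whose log2 values depend on the prior count, limit the changes in C57BL6/J, FVB/NJ, BALB/CJ and CC019/TauUnc.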
